A study of Mus musculus with 18 samples.

Results

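The forelimb bud of control mouse embryos was compared between E10.5 and E11.5 (days of embryonic development), the step from an outgrowing bud of mesenchyme to a limb with cartilage condensations. The comparison rests on 6 of the 18 RNA sequencing libraries of the study, 3 of controls at E10.5 and 3 of controls at E11.5, and these were taken by their labelled genotype and stage. All 6 were of genotype Esco2fl/fl, in which both copies of Esco2, a gene for an acetyltransferase that acts on cohesin during DNA replication, are flanked by loxP sites, and no Cre was named for them. The other 12 libraries were younger controls at E9.5 and Cre-carrying mutants (Esco2fl/fl;Prrx1-CreTg/0) of all 3 stages. They enter only the filter on low counts, the scaling of libraries and the shared estimate of the spread, apart from levels at E9.5 given where stated. Strain and sex of the embryos are not in the labels. RNA came from single limb buds, and whether the 3 libraries of a stage came from separate embryos or litters is not stated, so the p-values reflect library-to-library spread, which may be technical.

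As background, limb mesenchyme grows out under signals from the apical ectodermal ridge, a rim of thickened ectoderm that secretes Fgf proteins, and from a posterior group of cells that secretes Shh. Mesenchymal cells then gather into condensations, turn on the transcription factor Sox9 and become chondrocytes, which lay down a matrix of type II collagen and aggrecan, while cells between the future bones become joint interzone and cells around them become tendon and connective tissue. Muscle precursors enter the bud from the somites as Pax3-expressing cells and differentiate there. In a whole bud, fewer cells of a type and less RNA per cell cannot be told apart.

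Totals ran from 44992366 to 49489072 counts per library at the earlier stage, with 35034237 to 41248298 at E11.5. Levels are counts per 1000000 (CPM) after scaling of library sizes, and library values are given in the order of replicates 1, 2 and 3. The labelled tissue was checked first. Tbx5, the T-box factor of the forelimb, was at 148, 165 and 166 CPM at E10.5 and at 233, 252 and 243 CPM at E11.5, whereas Tbx4 and Pitx1, factors of the hindlimb, lay between 6.15 and 12 CPM and between 0.369 and 4.48 CPM over the 6 libraries. Tbx5 rose by 0.60 ± 0.13 on the log2 scale (± SE, n = 3 per stage, adjusted p = 0.00934, and 0.0606 without E10.5 replicate 1). The mesenchymal factors Prrx1 (537 ± 12 and 559 ± 10.4 CPM, SD, n = 3), Twist1 (205 ± 3.63 and 215 ± 29.4 CPM) and Msx1 (166 ± 20.7 and 165 ± 15.1 CPM) did not pass the test. Esco2 itself was at 29.4, 33.6 and 28.1 CPM at E10.5 and at 30.9, 20.6 and 30.9 CPM at E11.5, with no call (log2 change -0.15 ± 0.14, adjusted p = 0.608).

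E11.5 replicate 1 lay between the stages. On the first principal component of the 6 libraries, which held 51.4% of the variance, the E10.5 libraries scored -57.2, -45.3 and -47.2, and the E11.5 libraries scored 22.8, 57.1 and 69.8. In 1034 of the 1328 genes that rose and in 420 of the 582 that fell, replicate 1 was the E11.5 library nearest to the E10.5 mean. The median log2 shift from that mean over the genes that rose was 0.77, 1.07 and 1.19 in the 3 E11.5 libraries. Pax1, a factor of the proximal and anterior bud, was at 47.9, 43.3 and 39.9 CPM at E10.5 and at 56.8, 3.77 and 0.348 CPM at E11.5, so that replicate 1 alone kept the earlier level. The first number in the submitters' sample codes was 41 for E10.5 replicates 1 and 2, 39 for E10.5 replicate 3, 79 for E11.5 replicate 1 and 42 for E11.5 replicates 2 and 3. What that number stands for is not stated, and since no number occurs at both stages, it cannot be told apart from the stage.

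Of 20118 genes tested, 1328 were higher at E11.5 (6.6%) and 582 were lower (2.89%), 9.49% in all, at an adjusted p of 0.05 in edgeR's quasi-likelihood test. By at least 2-fold, 812 genes were higher (4.04%) and 160 lower (0.795%). The median log2 change of all genes was -0.003. Without E11.5 replicate 1 the counts were 1303 higher and 590 lower. Leaving out any other library left fewer calls, with 575 higher and 206 lower without E10.5 replicate 1, 855 and 336 without E10.5 replicate 2, 686 and 254 without E10.5 replicate 3, 769 and 233 without E11.5 replicate 2, and 549 and 145 without E11.5 replicate 3. Some other fits stayed close to the main counts, with 1337 higher and 541 lower under DESeq2 size factors and 1222 and 507 with a replicate block. Others moved further. A fit to only the 6 libraries called 2306 genes higher and 1713 lower, a fit without the 2 libraries of other groups that stood apart called 2147 and 1576, and summing libraries that share a first number left 256 and 57. The libraries of the stages did not overlap in 19.5% of all genes tested on the higher side and in 18.4% on the lower, the background for each gene said not to overlap. Counts of lists given here are therefore read with the libraries on which they rest. Each is also read beside the 6.6% of all genes that were higher and the 2.89% that were lower. Of the 189 named genes that were called, 112 passed the test in each of the 6 fits without 1 library.

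**Figure D1:**
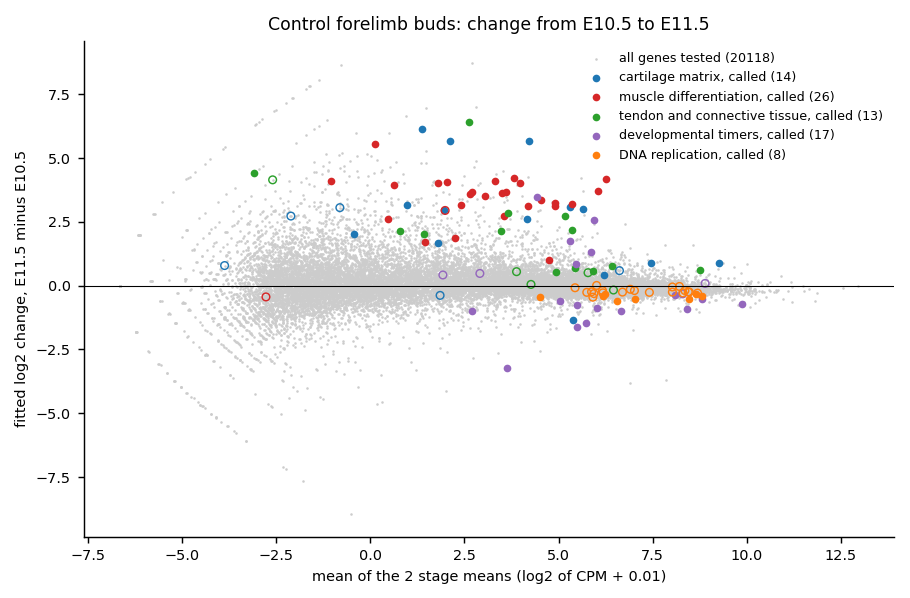
Fitted log2 change from E10.5 to E11.5 (vertical axis) against the mean level of both stages (log2 CPM, horizontal axis), 1 point per gene tested. Members of 5 gene lists are coloured, filled where called and open where not, and 26 of 28 muscle differentiation genes and 8 of 28 DNA replication genes are filled.

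Of 18 chondrogenic transcription factors tested, 9 rose and 0 fell, with a median log2 change of 0.65, beside 6.6% of all genes rising and a median of -0.003. Sox9, the factor that commits mesenchyme to cartilage, was at 105, 139 and 128 CPM at E10.5 and at 208, 192 and 170 CPM at E11.5. The groups did not overlap, and the change was 0.61 ± 0.18 (adjusted p = 0.0408), a call that was lost in each fit without 1 library, with p up to 0.195. Its partner Sox6 was at 16, 25.6 and 17.2 CPM and then at 48, 36.9 and 40.6 CPM (1.09 ± 0.25, adjusted p = 0.00987, and up to 0.0666 without E10.5 replicate 1 or 3), whereas the other partner Sox5 was at 33.7, 40 and 37.2 CPM and then at 48.4, 40.4 and 43.8 CPM and was not called (0.26 ± 0.14, adjusted p = 0.284). A pair of regulators known from later cartilage were close to absent at E10.5. Nkx3-2, a repressor that promotes cartilage, was at 0, 0.0222 and 0.0797 CPM, 5 counts in all, and rose to 1.59, 4.74 and 5.09 CPM (adjusted p = 0.00447). Runx3, which acts in chondrocyte maturation, was at 0.349, 0.488 and 0.498 CPM and rose to 1.5, 6.61 and 4.8 CPM (3.27 ± 0.56, adjusted p = 0.00166). In both, E11.5 replicate 1 was the lowest library of its stage and still above every E10.5 library. Mef2c, a driver of chondrocyte hypertrophy, went from 15.9, 12.1 and 12 CPM to 26.6, 38.8 and 47.8 CPM (1.50 ± 0.23, adjusted p = 0.000729). Mef2c is also a muscle factor. Its E11.5 libraries stood in the order of the median log2 shift over all genes that rose (0.77, 1.07 and 1.19). The summed muscle differentiation genes stood in that order too (416, 851 and 1100 CPM). The part of muscle in the rise of Mef2c was not tested. Runx2, a factor of bone formation and cartilage maturation, was not called, at 21.1, 18.5 and 13.7 CPM and then 31.1, 14.7 and 15.5 CPM (adjusted p = 0.821), with E11.5 replicate 1 the highest of all 6 libraries. The count of factors that rose was 1 with libraries of a shared first number summed, 4 without E10.5 replicate 1, and 5 without E10.5 replicate 3 or E11.5 replicate 3.

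Cartilage matrix genes started from widely different levels. Of 24 cartilage matrix genes listed, 19 passed the filter on low counts, and of these 13 rose and 1 fell, with a median log2 change of 2.6. Without E10.5 replicate 1, E10.5 replicate 3 or E11.5 replicate 2, and with libraries of a shared first number summed, 7 rose. Col9a3, a chain of type IX collagen on the surface of cartilage fibrils (ENSMUSG00000027570.15, chromosome 2, 180597790 to 180622189, mm10), was at 5.64, 10.8 and 8.49 CPM at E10.5 and at 52.2, 91 and 67.4 CPM at E11.5. The rise was 3.08 ± 0.30 (adjusted p = 6.51e-05), and its partner chain Col9a2 rose by 3.00 ± 0.36 (11.1 ± 5.71 to 88.8 ± 25.1 CPM, SD, n = 3, adjusted p = 0.000145). Col11a2, a chain of the type XI collagen that seeds the same fibrils, went from 5.08, 4.34 and 5.78 CPM to 24.4, 40.8 and 26.9 CPM (2.60 ± 0.28, adjusted p = 8.22e-05). No E11.5 library overlapped with an E10.5 library in these 3 genes, as in 19.5% of all genes. Col2a1, the main collagen of cartilage, was already high, at 383, 481 and 424 CPM, and reached 806, 848 and 728 CPM, a smaller change of 0.89 ± 0.22 (adjusted p = 0.0172, and up to 0.095 without E10.5 replicate 1, E10.5 replicate 3 or E11.5 replicate 2).

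The proteoglycan Acan and the matrilins, adaptor proteins that link collagen and proteoglycan, were near 0 at E10.5. Acan was at 0.082, 0.0886 and 0.319 CPM and then at 3.09, 14 and 8.3 CPM (5.66 ± 0.79, adjusted p = 0.000418). Matn4 (ENSMUSG00000016995.17, chromosome 2, 164389393 to 164405160) went from 0.226, 1.53 and 0.399 CPM to 20.2, 51.9 and 36.2 CPM (5.66 ± 0.65, adjusted p = 9.79e-05), the largest rise among called genes with separate libraries at the 2 stages and an average log2 CPM of 1 or more. Matn1, with 10 counts in all at E10.5, went from 0.041, 0.177 and 0 CPM to 2.08, 8.17 and 5.09 CPM (adjusted p = 0.000337). In all 3 genes the lowest E11.5 library was replicate 1 and the highest was replicate 2. Matn3, by contrast, was at 3.71, 3.77 and 4.74 CPM and then at 2.69, 3.56 and 3.13 CPM and was not called (adjusted p = 0.227). The member that fell was Hapln1, the link protein that ties aggrecan to hyaluronan, which went from 66, 69.4 and 45.8 CPM to 26.9, 18.5 and 25.2 CPM (-1.36 ± 0.29, adjusted p = 0.00793). Its fall passed the test in each of the 6 fits without 1 library, with p up to 0.0471.

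**Figure D2:**
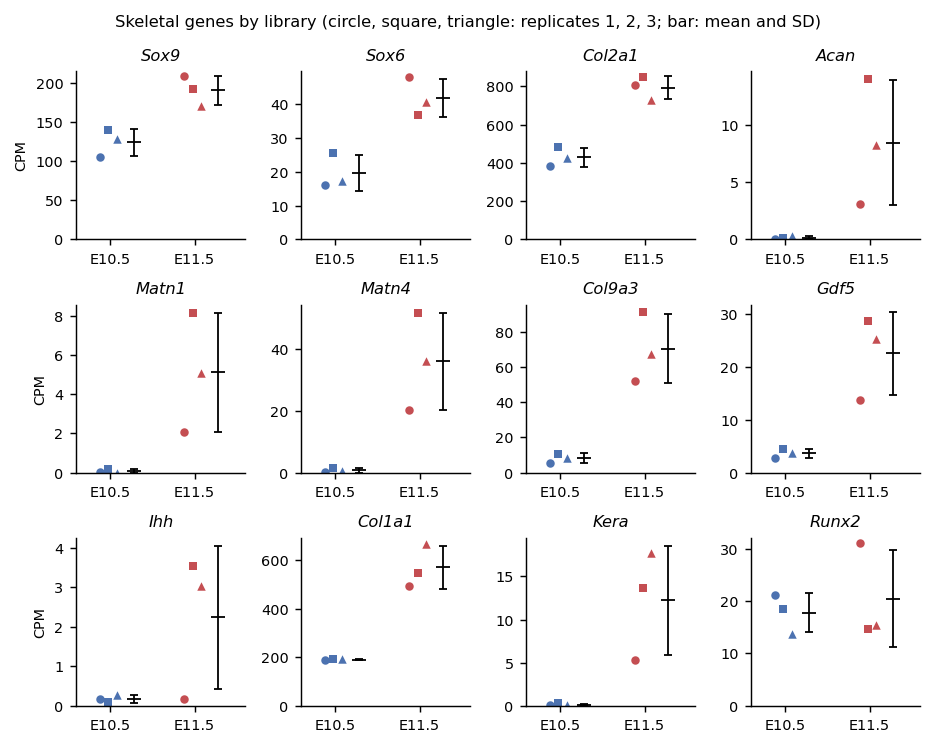
Levels of 12 skeletal genes in each of the 6 libraries (CPM, linear axes from 0), with a point per library (circle, square and triangle for replicates 1, 2 and 3) and the mean and SD of each stage. Col9a3 lies between 5.64 and 10.8 CPM at E10.5 and between 52.2 and 91 CPM at E11.5, and Runx2 overlaps between the stages.

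Some genes that build and sulfate the matrix also rose. Of 18 genes of cartilage signalling and matrix enzymes, 9 rose and 1 fell (median 0.86), and of 20 genes of glycosaminoglycan synthesis and sulfation, 7 rose and 0 fell (median 0.28), the latter 3 without E10.5 replicate 1, E10.5 replicate 3 or E11.5 replicate 3. With libraries of a shared first number summed, 4 and 1 rose. Papss2, which makes the sulfate donor used in cartilage, went from 1.91, 2.33 and 1.75 CPM to 12.3, 28.7 and 25.8 CPM (3.48 ± 0.43, adjusted p = 0.000164). Its relative Papss1 changed far less, from 111 ± 9.67 to 134 ± 3.88 CPM (0.27 ± 0.08, adjusted p = 0.0385, and up to 0.212 when 1 of 5 libraries was left out). Sulf1, which trims sulfate from heparan sulfate outside the cell, went from 30.8, 37.1 and 33.3 CPM to 96.3, 193 and 256 CPM (2.43 ± 0.34, adjusted p = 0.000439), and Chsy3, a chondroitin synthase, from 1.17, 1.22 and 1.12 CPM to 2.46, 4.32 and 5.32 CPM (1.79 ± 0.34, adjusted p = 0.00373). The growth plate signals were low. Pthlh, a ligand that holds back chondrocyte maturation, went from 0.164, 0.111 and 0.159 CPM to 0.75, 1.84 and 2.63 CPM (3.56 ± 0.74, adjusted p = 0.00634). Ihh, the hedgehog ligand of prehypertrophic chondrocytes, was at 0.164, 0.0886 and 0.279 CPM and then at 0.164, 3.53 and 3.03 CPM, so that E11.5 replicate 1 stayed within the E10.5 range. Ihh was called (adjusted p = 0.0235) but not in the fits without any one of the other 5 libraries (p up to 0.105). Wwp2, a ubiquitin ligase induced by Sox9 and host of a cartilage microRNA, rose by 1.00 ± 0.12 (111 ± 14.9 to 221 ± 32.7 CPM, adjusted p = 0.000116). The member that fell was Pkdcc, a secreted kinase, from 422, 368 and 392 CPM to 279, 177 and 143 CPM (-0.98 ± 0.24, adjusted p = 0.0156, and up to 0.1 without E10.5 replicate 1, E11.5 replicate 2 or E11.5 replicate 3).

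Among 18 genes of cell adhesion in condensations, 5 rose and 0 fell (median 0.31), and 2 rose without E11.5 replicate 3 and 3 without E10.5 replicate 1. Tnc, the matrix protein tenascin C, went from 5.47, 4.52 and 11.4 CPM to 59.2, 93.8 and 128 CPM (3.71 ± 0.72, adjusted p = 0.00644). Ncam1, an adhesion molecule of condensing cells, went from 39, 37.4 and 33.2 CPM to 74.4, 80.4 and 91.2 CPM (1.17 ± 0.20, adjusted p = 0.00162), whereas Cdh2, the N-cadherin of early condensation, was at 89.9, 92.2 and 77.1 CPM and then at 117, 88.4 and 104 CPM (adjusted p = 0.474). Of 14 genes of the osteoblast lineage that were tested, 6 rose and 1 fell (median 0.63), and 3 rose with libraries of a shared first number summed. The fall was that of Alpl, a phosphatase of mineralizing cells (6.71 ± 0.325 to 4.06 ± 1.13 CPM, adjusted p = 0.0342), and without any one library other than E11.5 replicate 1 it was not called (p up to 0.165). Bmp2, a growth factor of cartilage and bone, went from 7.95, 8.78 and 7.65 CPM to 26, 31.8 and 38.6 CPM (1.98 ± 0.33, adjusted p = 0.00131), and Dlx5, a homeodomain factor of bone and ectoderm, from 3.85, 7.18 and 6.42 CPM to 14.2, 23.8 and 20 CPM (1.73 ± 0.28, adjusted p = 0.00116). Phex, a gene of bone cells, was called higher and passed the test in each of the 6 fits without 1 library. Its log2 change there was 2.59 to 3.09 (adjusted p up to 0.0128). The bone genes Bglap and Sp7 were not called. Bglap, which encodes osteocalcin, was at or below 0.351 CPM in every library, and Sp7, a factor needed for osteoblasts, was at 2.72 ± 0.292 and 4.45 ± 1.15 CPM (adjusted p = 0.0599).

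Of 18 joint interzone genes tested, 10 rose and 1 fell (median 0.9), and 6 rose without E10.5 replicate 1, E10.5 replicate 3 or E11.5 replicate 3. With libraries of a shared first number summed 4 rose, and 0 fell without any one library other than E11.5 replicate 1. Gdf5, the growth factor that marks the interzone (ENSMUSG00000038259.4, chromosome 2, 155941023 to 155945367), went from 2.79, 4.5 and 3.65 CPM to 13.7, 28.7 and 25.3 CPM (2.63 ± 0.40, adjusted p = 0.000808). The secreted BMP inhibitors Nog (0.902, 1.35 and 1.38 CPM, then 4.03, 7.56 and 11 CPM) and Chrd (3.98, 3.46 and 4.76 CPM, then 8.36, 14.3 and 11.1 CPM) rose by 2.64 ± 0.38 (adjusted p = 0.000448) and 1.47 ± 0.28 (adjusted p = 0.00353). Creb5, a factor of articular cartilage, went from 6.89, 7.11 and 5.82 CPM to 19.8, 31.8 and 36.9 CPM (2.16 ± 0.32, adjusted p = 0.000684). Each of these 4 genes passed the test in all 6 fits without 1 library. The Wnt inhibitor Sfrp2 rose by 1.04 ± 0.16 (65 ± 8.46 to 133 ± 22.5 CPM, adjusted p = 0.00084), while its relative Sfrp1 was at 130, 109 and 121 CPM and then at 106, 46.2 and 36.5 CPM and was not called (adjusted p = 0.264), with E11.5 replicate 1 close to the E10.5 libraries.

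Of 18 tendon and connective tissue genes, 13 rose and 0 fell (median 1.41). The count fell to 5 without E10.5 replicate 1 or E11.5 replicate 3, to 7 without E10.5 replicate 3, and to 8 without E10.5 replicate 2 or E11.5 replicate 2. Scx, the factor of tendon progenitors, was itself not called, at 38.3, 53.1 and 44.9 CPM and then at 62.1, 61.7 and 70.1 CPM (0.51 ± 0.32, adjusted p = 0.382). Kera, a small proteoglycan of tendon and cornea, was close to absent at E10.5, at 0.123, 0.266 and 0.0399 CPM, and reached 5.27, 13.7 and 17.7 CPM (6.41 ± 0.77, adjusted p = 0.000145). Six2, a homeodomain factor of limb tendon, went from a mean of 14.7 ± 3.37 CPM (SD, n = 3) to 60.1, 71.5 and 69.4 CPM (2.19 ± 0.36, adjusted p = 0.00132). Egr1, an immediate early factor that also acts in tendon, rested on a single library, with 3.65, 2.93 and 2.63 CPM at E10.5 and 2.51, 5.53 and 58.1 CPM at E11.5 (adjusted p = 0.04, and 0.582 without E11.5 replicate 3). Of 27 fibrous matrix genes tested, 14 rose and 0 fell (median 0.88), 7 without E11.5 replicate 3 and 8 without E10.5 replicate 1 or 3. The small proteoglycans Ogn and Dcn led. Ogn went from 0.0615, 0.199 and 0.0598 CPM, 15 counts in all, to 4.5, 16.9 and 20.4 CPM (adjusted p = 9.78e-05), and Dcn from 0.595, 0.864 and 1.47 CPM to 8.13, 11.4 and 14.2 CPM (3.52 ± 0.57, adjusted p = 0.00119). Col1a1, the main collagen of tendon and bone, went from 188, 193 and 191 CPM to 495, 547 and 669 CPM (1.58 ± 0.36, adjusted p = 0.012, and up to 0.0623 without E10.5 replicate 1, E10.5 replicate 3 or E11.5 replicate 3), and Col3a1, the collagen of loose connective tissue, was at 761 ± 9.93 and 1070 ± 106 CPM and was not called (adjusted p = 0.0847).

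Muscle differentiation genes rose nearly throughout. Of 28 tested, 26 rose and 0 fell, with a median log2 change of 3.57, and between 19 and 25 rose in the fits without 1 library. Summed over the list, the level was 101, 41.8 and 109 CPM at E10.5 and 416, 851 and 1100 CPM at E11.5, so E10.5 replicate 2 was the lowest and E11.5 replicate 1 the lowest of its stage. Of 16 genes of muscle precursors, 4 rose and 1 fell (median 0.02). Pax3, the factor of migrating muscle precursors, fell from 32, 22 and 24.9 CPM to 9.3, 3.82 and 3.9 CPM (-2.21 ± 0.31, adjusted p = 0.00042), while Pax7, the factor of the later precursors, rose from 1.27, 2.06 and 0.937 CPM to 8.08, 7.83 and 11.8 CPM (2.70 ± 0.46, adjusted p = 0.00164). Myod1, which commits cells to muscle, went from 4.39, 8.07 and 6 CPM to 39.3, 61.5 and 60.7 CPM (3.13 ± 0.47, adjusted p = 0.000729). Myog, the factor of differentiation, went from 9.66, 4.76 and 9.61 CPM to 49.7, 80.3 and 92 CPM (3.21 ± 0.94, adjusted p = 0.0485). The Myog libraries did not overlap, yet its call was lost in each fit without 1 library, with p up to 0.157. Genes of fusion and contraction followed. Mymk, the membrane activator of myoblast fusion, went from 0.595, 0.199 and 0.558 CPM to 4.05, 8.06 and 11 CPM (4.08 ± 0.61, adjusted p = 0.00092). Klhl41, a protein of the growing sarcomere (ENSMUSG00000075307.3, chromosome 2, 69670120 to 69684230), went from 1.21, 0.687 and 1.34 CPM to 10.9, 21.2 and 24.1 CPM (4.11 ± 0.40, adjusted p = 6.51e-05). Actc1, the actin of heart and embryonic muscle, went from 8.88, 1.02 and 13.9 CPM to 66.4, 159 and 210 CPM (4.19 ± 0.74, adjusted p = 0.00353). In each of these, the lowest E11.5 library was replicate 1 and was above every E10.5 library.

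Because the muscle genes moved together, their promoters were read from RefSeq windows that run from 250 bases before to 50 bases after a gene start (GRCm38.p6, 12680 tested genes with a window), and searched on both strands for CAGCTG, a form of the E-box that Myod1 and Myog bind and that reads the same on both strands. The letters occurred in the windows of 9 of the 19 muscle differentiation genes with a window (47.4%), of 15.6% of all genes with a window, of 5 of 15 cartilage matrix genes (33.3%) and of 3 of 22 DNA replication genes (13.6%). Some RefSeq starts lay far from the gene start in the count files. Among the 9, the distance was 19987 bases for Tnni1, 2718 for Mylpf and 1154 for Chrng. TATAAA, the core of the TATA box, occurred in 6 of the 19 muscle windows (31.6%) and in 7.67% of all. ACAAT, part of the Sox motif, occurred in 2 of 15 cartilage matrix windows (13.3%) and in 20.4% of all. A match is a description of the letters and not a site of binding. A pair of muscle windows is shown with CAGCTG in capitals, those of Klhl41 at chr2:69669870-69670169 (plus strand) and of Tnnt2, a troponin of the contractile filament that went from 1.31 ± 0.921 to 15.2 ± 7.94 CPM (3.53 ± 0.56, adjusted p = 0.000996), at chr1:135836084-135836383 (plus strand).
Klhl41: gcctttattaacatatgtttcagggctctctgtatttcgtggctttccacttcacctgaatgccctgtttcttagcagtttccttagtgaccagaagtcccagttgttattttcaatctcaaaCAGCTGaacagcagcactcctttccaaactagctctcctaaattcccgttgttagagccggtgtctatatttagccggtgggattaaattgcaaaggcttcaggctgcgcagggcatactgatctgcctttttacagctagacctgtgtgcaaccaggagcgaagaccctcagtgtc
Tnnt2: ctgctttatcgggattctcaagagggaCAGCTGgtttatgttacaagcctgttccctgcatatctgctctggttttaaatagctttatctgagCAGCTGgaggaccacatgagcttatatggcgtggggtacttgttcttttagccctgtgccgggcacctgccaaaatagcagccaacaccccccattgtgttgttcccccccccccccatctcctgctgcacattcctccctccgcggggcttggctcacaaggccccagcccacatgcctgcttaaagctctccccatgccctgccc

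The heterochronic genes, which set the timing of development in many tissues, split by direction. Of 21 developmental timers, 12 fell and 5 rose, beside 2.89% and 6.6% of all genes. The 5 rises passed the test in each fit without 1 library, and the falls numbered 7 without E11.5 replicate 2 or 3. Lin28a, an RNA-binding protein that blocks the maturation of let-7 microRNAs (ENSMUSG00000050966.9, chromosome 4, 134003330 to 134018841, minus strand), went from 28.4, 17.9 and 21 CPM to 3.56, 1.48 and 2.14 CPM (-3.22 ± 0.34, adjusted p = 8.22e-05). At E9.5 it had been between 394 and 428 CPM. Its relative Lin28b went from 78, 56.8 and 70.3 CPM to 31.7, 17.8 and 16.7 CPM (-1.63 ± 0.24, adjusted p = 0.000585). Trim71, a ubiquitin ligase and RNA-binding protein known as a let-7 target, went from 91.7, 70 and 72.1 CPM to 37.8, 22.2 and 25.4 CPM (-1.45 ± 0.17, adjusted p = 9.79e-05). Each gene was lower in all E11.5 libraries than in any E10.5 library, and E11.5 replicate 1 was the highest of its stage. Hmga2, a chromatin protein of growing tissue, was at 1230, 1160 and 1080 CPM and then at 931, 577 and 612 CPM (-0.71 ± 0.17, adjusted p = 0.0121, and up to 0.0847 without E10.5 replicate 1, E11.5 replicate 2 or E11.5 replicate 3). The genes that rose were the nuclear factor I family and Hic1, a repressor of growth. Nfix went from 2.11, 4.99 and 3.59 CPM to 23.6, 42.6 and 52.6 CPM (3.48 ± 0.45, adjusted p = 0.000246), and Nfia from 16.8, 20.9 and 17 CPM to 45.6, 62.2 and 76.3 CPM (1.75 ± 0.18, adjusted p = 8.22e-05). Nfib and Nfic rose by 1.32 ± 0.22 (adjusted p = 0.0014) and 0.84 ± 0.14 (adjusted p = 0.00132). Hic1 went from 16.1, 19.3 and 17.2 CPM to 68, 111 and 135 CPM (2.58 ± 0.27, adjusted p = 8.22e-05).

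**Figure D3:**
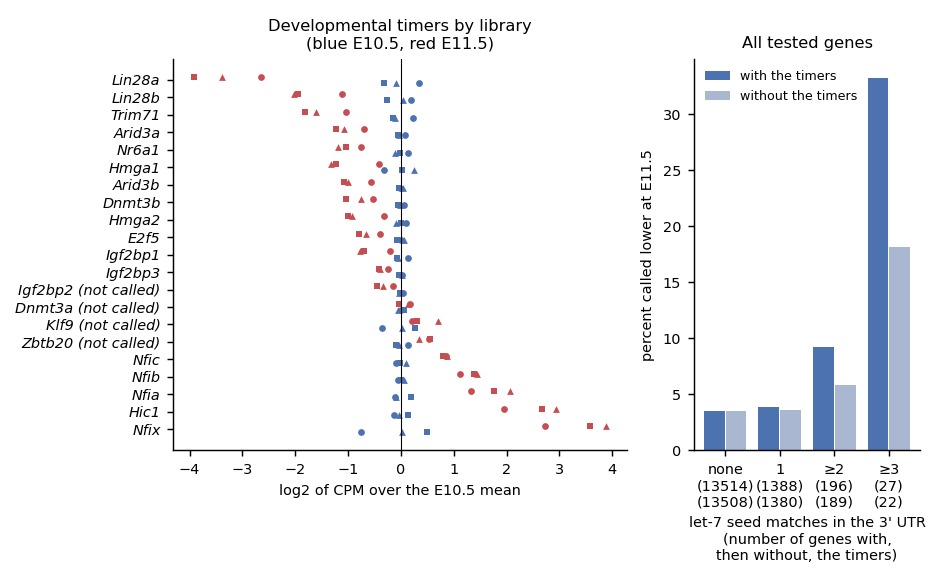
Left, level of each developmental timer in each library over its E10.5 mean (log2), blue for E10.5 and red for E11.5, with circle, square and triangle for replicates 1, 2 and 3; right, percent of tested genes called lower at E11.5 by number of let-7 seed matches in the 3′ UTR (the bar for 3 or more is part of that for 2 or more). Lin28a lies farthest left, and the dark bars (timers included) stand at 3.47% with no match and 33.3% of 27 genes with 3 or more, the light bars (timers left out) at 3.46% and at 18.2% of 22 genes.

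Because several of the genes that fell are known let-7 targets, the let-7 family and its matches are shown. MicroRNAs pair with messenger RNAs through the seed, bases 2 to 8, and mature microRNAs were not measured in these libraries. The 8 sequences taken from RefSeq's mouse records, named from let-7a to let-7i, share the seed GAGGUAG, shown in capitals. Other let-7 names were not read.
let-7a: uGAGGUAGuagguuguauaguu
let-7e: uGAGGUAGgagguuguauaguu
let-7g: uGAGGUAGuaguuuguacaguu
let-7i: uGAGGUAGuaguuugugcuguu
The match to this seed in a transcript is CTACCTC. It was searched in the longest annotated 3′ UTR of each tested gene (15098 genes, GENCODE M21 on GRCm38). Sites are shown with 9 bases on either side and the match in capitals, each on the strand of its gene, at chr4:134005181-134005205 and chr4:134004543-134004567 (minus strand) for Lin28a, chr10:120364216-120364240 (minus strand) for the first of 4 in Hmga2, chr9:65185713-65185737 and chr9:65185793-65185817 (plus strand) for Igdcc3, chr9:114512464-114512488 (minus strand) for the first of 4 in Trim71, and chr9:72912564-72912588 (plus strand) for the first of 2 in Prtg.
Lin28a, site 1: cctgttgaaCTACCTCatttttgcc
Lin28a, site 2: gccacaaacCTACCTCactgtgttg
Hmga2, site 1: attcaatttCTACCTCagcatcagt
Igdcc3, site 1: tctcagcacCTACCTCagccggaat
Igdcc3, site 2: aaagcactcCTACCTCaagcccctt
Trim71, site 1: gcctaagtcCTACCTCagcttaaat
Prtg, site 1: gctgaatagCTACCTCagtttgctg

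Of the 12 timers that fell, 11 had a match and 7 had 2 or more, and of the 5 that rose, 2 had a match and 0 had 2 or more. The list was put together with known let-7 targets in it, so these counts are no independent evidence. Over all 15098 genes, the share that fell was 3.47% of the 13514 genes with no match, 3.82% of 1388 with 1, 9.18% of 196 with 2 or more and 33.3% of 27 with 3 or more. With the timers left out it was 5.82% of 189 genes with 2 or more and 18.2% of 22 with 3 or more, which is 4 genes. The median log2 change of these sets without the timers was 0.03 and 0.08, beside 0.02 with no match, and 7.94% and 9.09% of them rose, beside 8.47% with no match. Genes with matches had longer 3′ UTRs, a median of 1055 bases with no match and of 3575 bases with 2 or more. Among genes with a 3′ UTR at least as long as the median of genes with a match, the share that fell was 2.34% of 2860 with no match and 7.43% of 148 with 2 or more, but 7 of those 11 falls were timers, and without them it was 2.84% of 141. The timers left out include known let-7 targets, so their removal takes such targets out of the share. The set with 3 or more matches was not compared at these lengths, and a part of let-7 in the falls was not tested. The 9 genes with 3 or more matches that fell were Nr6a1 with 8, Trim6 with 6, Lin28b, Trim71, Hmga2 and Igf2bp1 with 4 each, D10Wsu102e with 4 in an annotated 3′ UTR of 122583 bases, and Fignl2 and Fign with 3 each, and 2 such genes rose, Zkscan2 and Slc22a23. These names were taken after their values were seen. Nr6a1, an orphan nuclear receptor of early embryos, went from 9.45, 8.47 and 7.97 CPM to 5.11, 4.19 and 3.8 CPM (-0.98 ± 0.16, adjusted p = 0.00112).

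Several of the largest falls lay outside the lists. Igdcc3, a receptor of the immunoglobulin family (ENSMUSG00000032394.6, chromosome 9, 65141189 to 65185872), was at 517, 342 and 440 CPM at E10.5 and at 67.3, 17.7 and 14.5 CPM at E11.5 (-3.70 ± 0.59, adjusted p = 0.00167), after 923 to 1030 CPM at E9.5. Prtg, the related receptor protogenin, went from 41.1, 25.3 and 33.8 CPM to 11.2, 5.35 and 6.01 CPM (-2.15 ± 0.28, adjusted p = 0.000275). Fignl2, an ATPase related to the microtubule severing enzyme fidgetin, went from 134, 105 and 120 CPM to 55.2, 24.9 and 24.3 CPM (-1.78 ± 0.24, adjusted p = 0.000345). In these genes too, E11.5 replicate 1 was the highest library of its stage. With Lin28a they were the 4 of the 12 largest falls that had a let-7 match, each with 2 or more. Of the 12 largest rises 0 had one, beside 1584 of all 15098 genes with an annotated 3′ UTR. Both sets were picked by the size of their changes, and their 3′ UTRs were not matched in length. Those of the rises ran from 68 bases (Actn2) to 4492 (Inhba), with 184 in Actc1, 263 in Matn4 and 277 in Myl1. Those of the falls ran from 506 (Upk1a) to 4989 (Prtg). A part of let-7 in this contrast was not tested.

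Genes outside the lists were also among the largest rises. Col8a1, a short-chain collagen, went from 0.123, 0.886 and 0.359 CPM to 11.3, 14.9 and 14.7 CPM (4.90 ± 0.69, adjusted p = 0.000439), and Inhba, the activin subunit, from 0.677, 0.643 and 0.219 CPM to 6.68, 15.4 and 16.9 CPM (4.66 ± 0.74, adjusted p = 0.000996). Islr2, a membrane protein with leucine-rich repeats, had the smallest adjusted p among named rises, going from 1.48, 2.26 and 2.85 CPM to 19, 22 and 26.1 CPM (3.35 ± 0.29, adjusted p = 4.83e-05). Ebf1, a transcription factor of connective tissue and fat as well as of B cells, went from 10.3, 14.5 and 14.7 CPM to 47.2, 107 and 113 CPM (2.76 ± 0.27, adjusted p = 6.51e-05). In all 4 genes replicate 1 was the lowest E11.5 library. Among the falls, Mogat2, an enzyme of fat synthesis, went from 43.7, 35.3 and 41.5 CPM to 14.6, 10.3 and 9.3 CPM (-1.82 ± 0.18, adjusted p = 7.47e-05), and Dusp9, a phosphatase that turns off MAP kinases, from 214, 199 and 199 CPM to 114, 87.9 and 91 CPM (-1.06 ± 0.11, adjusted p = 8.22e-05). By the rule that the mean be under 0.5 CPM at E10.5 and at least 5 CPM at E11.5, 14 genes met the limits and 13 of them were called, among them Col8a1, Matn1, Kera, Ogn and Mymk.

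Calls among patterning factors differed by list. Of 19 limb progenitor factors, 1 rose and 3 fell (median -0.19), beside 6.6% and 2.89% of all genes, so the rise was near the background. In the fits without 1 library, 0 rose without E10.5 replicate 1. The falls numbered 2 without E10.5 replicate 3, E11.5 replicate 2 or E11.5 replicate 3. Sall4, a zinc finger factor of early limb and stem cells, fell from 46.7, 33.5 and 45.3 CPM to 19.2, 11 and 8.33 CPM (-1.70 ± 0.23, adjusted p = 0.000378), and Tfap2c, an AP-2 factor, from 31.2, 27.1 and 31.4 CPM to 11.6, 11 and 8.8 CPM (-1.51 ± 0.19, adjusted p = 0.000175). Of 16 proximal factors, 4 fell and 2 rose (median -0.67), and the count depended on single libraries. In the fits without 1 library, 8 fell without E11.5 replicate 1, 1 without E10.5 replicate 3, and 0 without E10.5 replicate 1, E11.5 replicate 2 or E11.5 replicate 3. Meis1, the homeodomain factor of the proximal limb, was at 99.4, 86.3 and 90 CPM and then at 68.8, 30.8 and 26.3 CPM (-1.13 ± 0.28, adjusted p = 0.0176), and Irx3 was at 109, 101 and 83.4 CPM and then at 68, 18.1 and 16.7 CPM (-1.51 ± 0.42, adjusted p = 0.0327). Meis2 was at 183, 150 and 154 CPM and then at 138, 57.8 and 62.9 CPM and was not called (adjusted p = 0.0564). In all 3 genes, E11.5 replicate 1 lay nearer to the E10.5 libraries than to the other E11.5 libraries. Pknox2, a relative of the Meis genes, rose from 8.92, 9.99 and 8.41 CPM to 27, 29.9 and 31 CPM (1.69 ± 0.29, adjusted p = 0.00192), with the 3 E11.5 libraries close together.

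Among factors of the distal limb and hand plate, 5 of 15 rose and 1 fell (median 0.28). The rises numbered 3 without E10.5 replicate 2 and 2 without E10.5 replicate 1, E10.5 replicate 3, E11.5 replicate 2 or E11.5 replicate 3. Hoxd13, the last Hox gene of its cluster (ENSMUSG00000001819.4, chromosome 2, 74668310 to 74671599), went from 110, 132 and 95.4 CPM to 218, 340 and 459 CPM (1.59 ± 0.29, adjusted p = 0.00244), and its neighbour Evx2 from 3.67, 7.96 and 3.77 CPM to 24.7, 43.8 and 51.6 CPM (2.97 ± 0.48, adjusted p = 0.00119). Hoxa13, its counterpart in the other cluster, went from 30.6, 39.1 and 28.5 CPM to 59.4, 68.2 and 83.9 CPM (1.11 ± 0.28, adjusted p = 0.0194, and up to 0.106 without E10.5 replicate 1, E10.5 replicate 3, E11.5 replicate 2 or E11.5 replicate 3). The more proximal Hoxa11 was at 95, 95.8 and 109 CPM and then at 74.7, 86.3 and 88.8 CPM, and Hoxd11 was at 84, 83.4 and 81.1 CPM and then at 74, 70.3 and 95.3 CPM, with no call (adjusted p = 0.535 and 0.934). Pax9, a factor of the limb and of cartilage precursors in the spine that stood in the list of Shh pathway and posterior genes, had one of the largest rises, from 0.513, 1.02 and 1.22 CPM to 9.74, 21 and 27.1 CPM (4.39 ± 0.47, adjusted p = 8.22e-05).

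Of 16 genes of the apical ectodermal ridge, 4 fell and 2 rose (median 0.02), and 2 fell without E11.5 replicate 3. Fgf8, the Fgf of the whole ridge (ENSMUSG00000025219.13, chromosome 19, 45736798 to 45742915, minus strand), fell from 40, 54.8 and 43.9 CPM to 20.3, 10.4 and 12.9 CPM (-1.67 ± 0.34, adjusted p = 0.00623), and Fgf4, the Fgf of its posterior part, fell from 3.05, 5.34 and 4.22 CPM to 0.75, 0.0527 and 0.447 CPM (-3.31 ± 0.81, adjusted p = 0.0162, and up to 0.0767 without E11.5 replicate 2 or 3). Fgf9 rose from 4.33, 7.8 and 5.58 CPM to 11.2, 13.1 and 14.1 CPM (1.12 ± 0.21, adjusted p = 0.00355). Trp63, the factor of all limb ectoderm, was at 38 ± 8.8 and 41.3 ± 11.7 CPM and was not called (adjusted p = 0.864). Shh was at 18.1, 19.9 and 15.6 CPM at E10.5 and at 7.33, 0.791 and 0.572 CPM at E11.5, and missed the threshold (-2.62 ± 0.81, adjusted p = 0.057), although the libraries did not overlap. Of 20 Shh pathway and posterior genes, 2 rose and 1 fell (median -0.16). In each fit without 1 library 1 rose, and 5 fell without E11.5 replicate 1 and 0 without any other. The direct targets Gli1 (85.3 ± 12.8 and 72.6 ± 8.89 CPM) and Ptch1 (127 ± 23.5 and 98.3 ± 16.7 CPM) were not called (adjusted p = 0.659 and 0.41). Grem1, a BMP inhibitor that links the posterior cells to the ridge, fell from 67.7, 50.3 and 64.5 CPM to 46.7, 21.1 and 21.4 CPM (-1.03 ± 0.30, adjusted p = 0.0384), a call lost without any one library other than E11.5 replicate 1 (p up to 0.194).

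BMP signalling genes rose in 8 of 19 cases and fell in 0 (median 0.32), with 3 rising without E10.5 replicate 1 or E11.5 replicate 3, 4 without E10.5 replicate 2 and 5 without E10.5 replicate 3. The secreted inhibitors Fst (0.533, 1.97 and 1.2 CPM, then 7.33, 15.2 and 16 CPM) and Bmper (1.6, 3.15 and 1.32 CPM, then a mean of 11.9 ± 2.35 CPM, SD) rose by 3.38 ± 0.48 (adjusted p = 0.000439) and 2.56 ± 0.52 (adjusted p = 0.00535). Id4, a target of BMP signals, went from 3.16, 4.28 and 3.23 CPM to 8.69, 16.8 and 15.3 CPM (1.93 ± 0.31, adjusted p = 0.000996). The receptor Bmpr1a and the transducer Smad1 were not called, Bmpr1a at 180 ± 6.71 and 196 ± 15.6 CPM (adjusted p = 0.675) and Smad1 at 44 ± 1.87 and 47.6 ± 4.64 CPM (adjusted p = 0.481). Of 24 Wnt pathway genes, 4 rose and 5 fell (median -0.1), and the falls numbered 3 without E10.5 replicate 1 or E11.5 replicate 2 and 2 without E11.5 replicate 3. The ligand Wnt11 and the inhibitor Dkk2 rose by 1.74 ± 0.31 (18.6 ± 3.24 to 62.1 ± 21.9 CPM, adjusted p = 0.0025) and 2.18 ± 0.28 (11.2 ± 1.29 to 50.8 ± 17.6 CPM, adjusted p = 0.000215). Genes known as Wnt targets split by direction. Tcf7 and Sp5 fell, Tcf7 from 57.2, 55.5 and 56.1 CPM to 35.2, 27.7 and 31.8 CPM (-0.83 ± 0.15, adjusted p = 0.00274) and Sp5 from 4.61, 6.03 and 5.42 CPM to 2.67, 1.4 and 1.02 CPM (-1.65 ± 0.33, adjusted p = 0.00469). Lgr5 rose, with a log2 change of 1.65 to 1.95 in the 6 fits without 1 library (adjusted p up to 0.0119). Of 15 retinoic acid genes, 2 rose and 2 fell (median 0.09), with 0 falling without E10.5 replicate 1, E11.5 replicate 2 or E11.5 replicate 3. Rarb, a receptor induced by retinoic acid, fell from 36.7, 25 and 27 CPM to 14.9, 7.11 and 7.93 CPM (-1.56 ± 0.36, adjusted p = 0.0106, and up to 0.0724 without E10.5 replicate 1, E11.5 replicate 2 or E11.5 replicate 3). The receptor Rxrg and the synthesis enzymes Aldh1a3 and Aldh1a2 were called higher. In the 6 fits without 1 library, the log2 change was 2.16 to 2.4 for Rxrg (adjusted p up to 0.036). It was 2.91 to 4.11 for Aldh1a3 (adjusted p up to 0.054, without E10.5 replicate 1). For Aldh1a2 it was 2.32 to 3.75, called in only 2 of these fits (adjusted p up to 0.154).

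Most genes of growth had small changes of one sign. Of 28 DNA replication genes, 8 fell and 0 rose, and 27 had a negative change (median -0.26). Of 24 ribosome biogenesis genes, 8 fell and 0 rose, and all 24 had a negative change (median -0.42). Of 28 mitosis genes, 2 fell and 0 rose, with 27 negative (median -0.25). Of 16 cell cycle inhibitors and brakes, 8 rose and 0 fell, and all 16 had a positive change (median 0.5). Over all genes, 9979 changes were positive and 10122 negative. Mcm10, a replication initiation factor, went from 119, 111 and 107 CPM to 80.1, 74.1 and 69.1 CPM (-0.60 ± 0.11, adjusted p = 0.00234), and Mycn, a driver of growth and ribosome synthesis, from 169, 144 and 169 CPM to 109, 85.8 and 76.7 CPM (-0.83 ± 0.17, adjusted p = 0.00547). Btg1, an antiproliferative protein, went from 60.5, 73.1 and 66.8 CPM to 110, 118 and 139 CPM (0.88 ± 0.12, adjusted p = 0.000337), and Rbl2, the retinoblastoma relative p130, from 7.91, 8.35 and 7.07 CPM to 11.8, 15.9 and 17.6 CPM (0.96 ± 0.17, adjusted p = 0.00223). These 4 genes passed the test in every fit without 1 library. The counts of calls depended on the libraries fitted. With only the 6 libraries, 20 replication, 22 ribosome and 15 mitosis genes fell, and without the 2 libraries that stood apart 18, 15 and 15 fell. With libraries of a shared first number summed, 0 of each fell and 1 inhibitor rose. Without 1 library, 1 to 3 mitosis genes fell. Replication genes that fell numbered 2 without E10.5 replicate 1, 4 without E10.5 replicate 2 or 3, 2 without E11.5 replicate 2 and 1 without E11.5 replicate 3. Ribosome genes that fell numbered 2 without E10.5 replicate 1, E11.5 replicate 2 or E11.5 replicate 3, and 3 without E10.5 replicate 3. Inhibitors that rose numbered 3 without E10.5 replicate 1 or E11.5 replicate 3, 2 without E10.5 replicate 3 and 4 without E11.5 replicate 2.

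Among 18 imprinted growth genes, 3 rose and 1 fell (median 0.13), with 1 rising without E10.5 replicate 1, E10.5 replicate 3 or E11.5 replicate 2 and 3 falling without E11.5 replicate 1. Plagl1, a zinc finger factor over other imprinted genes, rose from 73.9, 68.3 and 64.9 CPM to 142, 138 and 168 CPM (1.11 ± 0.18, adjusted p = 0.00117), and Mest, a paternally expressed gene of growing mesoderm, fell from 2980, 2730 and 3030 CPM to 2170, 1730 and 1650 CPM (-0.65 ± 0.13, adjusted p = 0.00436). H19 was at 6180 ± 178 and 5800 ± 347 CPM and was not called (adjusted p = 0.68). Of 20 hypoxia and glycolysis genes, 1 rose and 2 fell (median -0.12). With only the 6 libraries 8 fell, and without the 2 that stood apart 6 fell. The falls numbered 2 without E11.5 replicate 1, 0 without E11.5 replicate 3 and 1 without any other library, and the rise was kept only without E10.5 replicate 3 or E11.5 replicate 1.

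**Figure D4:**
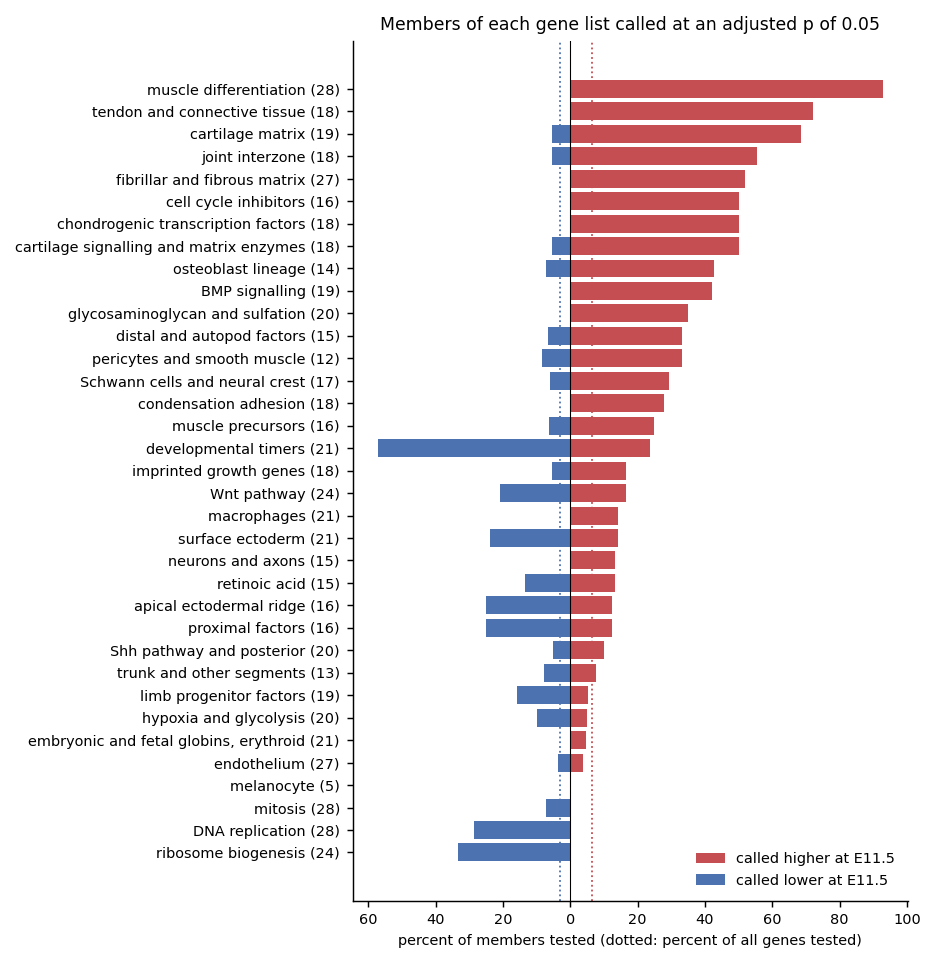
Percent of the tested members of each gene list called higher (red, to the right) and lower (blue, to the left) at E11.5, with the number tested after each name and dotted lines at the 6.6% and 2.89% of all genes tested. Muscle differentiation has the longest bar to the right, with 26 of 28, and the developmental timers have the longest to the left, with 12 of 21.

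Calls among markers of cells other than limb mesenchyme differed by list. They are set beside the 6.6% of all genes that rose and the 2.89% that fell. Of 27 endothelial genes, 1 rose and 1 fell (median -0.22), near those shares. In other fits, 0 were called without E11.5 replicate 3 and 4 fell with only the 6 libraries. Their summed level was 1050, 962 and 994 CPM at E10.5 and 1000, 886 and 952 CPM at E11.5. Pecam1, an adhesion molecule of endothelium, was at 52.9 ± 3.81 and 51.4 ± 0.156 CPM (adjusted p = 0.888). Macrophage genes were low, and all 21 tested had a positive change (median 1.08), of which 3 were called, and 0 without E10.5 replicate 1, E10.5 replicate 3, E11.5 replicate 2 or E11.5 replicate 3. The calls numbered 13 with only the 6 libraries, 9 in DESeq2 and 6 without the 2 libraries that stood apart. Their summed level was 37.4, 52.1 and 38.9 CPM and then 78.8, 96.8 and 100 CPM. The erythroid sum followed single libraries more than stage, at 3160, 6400 and 3900 CPM and then at 3710, 5060 and 5210 CPM, with E10.5 replicate 2 the highest. Hbb-bh1, an embryonic globin, was at 756, 1640 and 916 CPM and then at 682, 630 and 623 CPM (adjusted p = 0.203). Hbb-bt, an adult globin, was at 9.35, 13.7 and 11.8 CPM and then at 6.47, 33.8 and 54.7 CPM (adjusted p = 0.404). Neither was called. Of 21 erythroid genes tested, 1 rose and 0 fell (median 0.07), near the shares of all genes. The gene that rose was the adult globin Hbb-bs, from 3.85, 12.7 and 6.46 CPM to 26, 59.9 and 30.2 CPM (2.34 ± 0.69, adjusted p = 0.0466), a call lost without any one library other than E11.5 replicate 1 (p up to 0.188). Hbb-bs and Hbb-bt are near-identical, so the split of counts between them is uncertain.

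Surface ectoderm genes split. Of 21 tested, 3 rose and 5 fell (median -0.11), with 3 falling without E10.5 replicate 2 or E11.5 replicate 2 and 2 without E11.5 replicate 3. Their summed level was 520, 748 and 508 CPM and then 538, 636 and 929 CPM. The basal keratins Krt14 and Krt15 rose, Krt14 from 13.2, 29.9 and 19.2 CPM to 37.3, 75.4 and 110 CPM (1.84 ± 0.36, adjusted p = 0.00474) and Krt15 from 5.6, 9.73 and 5.42 CPM to 16.7, 30.6 and 36.2 CPM (2.01 ± 0.38, adjusted p = 0.00325). Krt8, a keratin of simple epithelium, fell from 28.3, 32.4 and 29 CPM to 16.1, 8.88 and 10.3 CPM (-1.35 ± 0.24, adjusted p = 0.00218). The falls of ridge genes and of simple keratins and the rises of basal keratins thus stood beside a summed ectoderm level that was highest in E11.5 replicate 3 and overlapped between the stages, and the part of ectoderm content in them was not tested. Of 17 Schwann cell and neural crest genes, 5 rose and 1 fell (median 1.05), with 3 rising without E10.5 replicate 1, E10.5 replicate 2 or E11.5 replicate 2 and 2 without E10.5 replicate 3. Ngfr, a neurotrophin receptor of Schwann precursors that mesenchyme also expresses, rose from 22.7, 17.2 and 19.6 CPM to 47.8, 69.2 and 88.2 CPM (1.79 ± 0.20, adjusted p = 8.48e-05), whereas Sox10, the defining factor of that lineage, was at 4, 4.61 and 4.52 CPM and then at a mean of 9.7 ± 4.47 CPM (SD, n = 3) and was not called (adjusted p = 0.379). Of 12 pericyte and smooth muscle genes tested, 4 rose and 1 fell (median 0.63), and 2 rose without E11.5 replicate 3. The pericyte markers Rgs5 and Cspg4 went opposite ways, and both calls were kept in each of the 6 fits without 1 library. In those fits the log2 change was -1.74 to -1.46 for Rgs5 (adjusted p up to 0.0183) and 1.23 to 1.61 for Cspg4 (adjusted p up to 0.0374). Acta2, an actin of smooth muscle and early skeletal muscle, went from 4.74, 2.77 and 7.27 CPM to 50.5, 105 and 118 CPM (4.21 ± 0.66, adjusted p = 0.00158), while Myh11, the defining myosin of smooth muscle, was at or below 0.474 CPM in every library. Of 15 neuron and axon genes, 2 rose and 0 fell, and 1 rose in each fit without 1 library. Of 13 genes of the trunk and other segments 1 rose and 1 fell, beside 6.6% and 2.89% of all genes. The rise was kept only without E10.5 replicate 2 or E11.5 replicate 1. Of 5 melanocyte, 12 mitochondrially encoded and 5 sex-linked genes 0 were called.

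**Figure D5:**
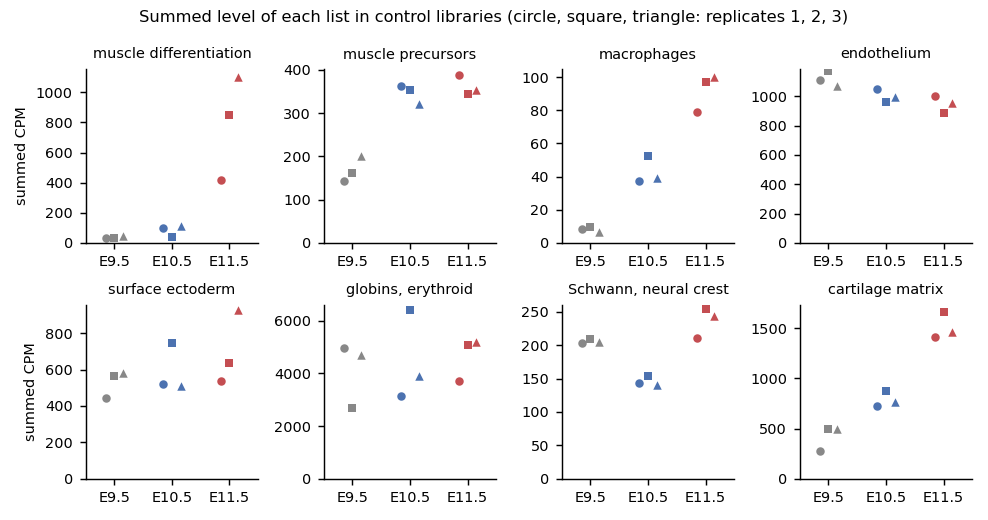
Summed level (CPM, axes from 0) of 8 gene lists in each control library, with circle, square and triangle for replicates 1, 2 and 3 and the E9.5 controls in grey. The muscle differentiation sum lies between 41.8 and 109 CPM at E10.5 and between 416 and 1100 CPM at E11.5, and the endothelial sum between 886 and 1050 CPM over both stages.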

How the data were processed

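Gene expression was measured by RNA sequencing of mouse forelimb buds, with 3 control libraries at E10.5 and 3 at E11.5 compared here. The submitters' processing notes name cutadapt, STAR, featureCounts and limma, without versions or settings. Per the file headers, the authors deposited counts per gene from featureCounts 1.6.4 in paired, reverse-stranded mode over exons of GENCODE M22 on mm10. No option to count reads that map to several places or overlap several genes appears in that header, so values of near-identical or overlapping genes are uncertain. The authors' second deposited table holds log2 FPKM values for 14692 genes and served only as an alternative.

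From the counts, edgeR 4.0.16 (R 4.3.3) kept 20118 genes with filterByExpr, scaled libraries by TMM and fitted 1 robust quasi-likelihood model to 18 libraries in 6 groups (common biological coefficient of variation 0.231). Adjusted p-values are Benjamini-Hochberg values of edgeR's quasi-likelihood test over all genes tested, with a threshold of 0.05. SE is from the fit and SD over 3 libraries. Symbols matched 99.8% of 55487 identifiers. Depth is given with the results.

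Members and the 38 gene lists were chosen with earlier results of these data known. Named genes are a fixed set of limb genes, the 12 largest changes and 6 smallest adjusted p-values in each direction, from each list the 4 members ranked first by adjusted p, or all called ones for skeletal lists, and genes of onset or loss. Some are left out for readability, and other list members and a few other genes were named after their values were seen. Sequences are from RefSeq and GENCODE M21. Same-numbered libraries did not pair. Alternatives were DESeq2 1.42.0, its size factors, other filters, removal of the length trend, summing of libraries that share a first number, limma 3.58.1 on log2 FPKM, fits to fewer libraries and a replicate block.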

Additional observations from a re-analysis of the deposited data

How the results depend on the processing

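Of 20118 genes, 1910 were called and 972 changed at least 2-fold. With 1 library left out, the calls ranged from 694 to 1893, those higher from 549 to 1303 and those lower from 145 to 590, and the 2-fold counts from 471 to 1108, higher from 412 to 881 and lower from 59 to 227. Counts were lowest without E11.5 replicate 3. Fitting only the 6 libraries gave 4019 calls (2306 higher, 1713 lower), and leaving out the 2 libraries of other groups that stood apart gave 3723 (2147 and 1576). Summing libraries that share a first number gave 313 (256 and 57) and 265 past 2-fold (226 and 39), with fewer samples. Removing the length trend gave 982 lower, and no filter on low counts gave 378 lower. DESeq2 called 2600 genes. The other counts of calls stayed within 1.5 times. The cause of these shifts was not tested. The replicate block gave 1729 calls (1222 and 507). Same-numbered libraries did not deviate together (correlations 0.004, -0.045 and -0.014). No named gene that was called reversed. Among named genes that were not called, the log2 change turned sign with 1 library left out for Esco1 (-0.15 to 0.16, and -0.0046 without E10.5 replicate 3), Esco2 (-0.24 to 0.025), Runx2 (-0.24 to 0.39), Xist (-0.048 to 0.94) and mt-Nd5 (-0.017 to 0.35), and for Kdm5d (-0.0024) with the length trend removed. Totals of 35034237 to 49489072 counts limit what can be said of genes with few counts, such as Nkx3-2 and Matn1 at E10.5.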
